A study of Mus musculus with 6 samples.

Results

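Nuclear receptors, the transcription factors that respond to steroid and thyroid hormones, retinoids, vitamin D, oxysterols and fatty acids, were followed across sorted mouse lung myofibroblasts, steady-state lung fibroblasts and whole-lung homogenate. The list held 41 gene symbols, and its members were the probes whose transcript accession maps to one of them through RefSeq. A probe was found for 40 of the 41, by 70 probes, among 22909 named genes on the array; Rorb had no named probe here. The NR4A receptors and other family members outside the list, such as Pparg and the androgen receptor, were not included. Per gene the brightest probe was used.

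Expression was measured with 6 one-colour Agilent arrays, 2 per group, all from male mice. The myofibroblast samples were CD49e+Sca1-Lin- cells sorted after bleomycin treatment, bleomycin being a drug that injures the lung and is used to induce fibrosis. The steady-state fibroblast samples were CD140a+Lin- cells sorted from untreated lungs, and the homogenates were whole untreated lungs. A set was 50000 cells and 5.8 ng of RNA was labelled, per the labels. Strain and age are not given in the sources used here. Surface gate and bleomycin changed together, so the comparison of the sorted groups cannot tell them apart, and no group holds homogenate of treated lung. No source used here says whether the 2 samples of a group are separate animals. P-values therefore reflect the spread between these samples only, and that spread may be technical.

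A nuclear receptor binds DNA through a zinc-finger domain and, in most members, a ligand through a pocket that also recruits coactivators or corepressors. Steroid receptors usually act as homodimers on palindromic sites. Thyroid hormone, retinoic acid, vitamin D and oxysterol receptors pair with a retinoid X receptor on repeats of a half-site, and the orphan receptors have no agreed natural ligand. In the lung, glucocorticoid and retinoic acid signalling are both known for their part in alveolar maturation, and lipid-storing fibroblasts hold retinyl esters.

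The unit below is relative signal, the processed spot intensity divided by the 75th percentile of its array, so that 1 is the signal at that percentile. Spots well above background made up 65.5% to 73.4% of each array, and no spot was saturated. The fibroblast arrays differed most from each other: 23.5% of genes lay over 2-fold apart there, against 7.84% for myofibroblasts and 2.83% for homogenates. Myofibroblast markers (Acta2, Tagln, Myl9, Postn, Cthrc1, Col1a1) summed to a relative signal of 633 and 690 in myofibroblasts and 109 and 71.4 in fibroblasts. Pdgfra, the gene of CD140a, read 73.5 and 35.1 in fibroblasts and 9.66 and 10.2 in myofibroblasts. The 6 fibroblast markers (Pdgfra, Tcf21, Inmt, Col1a1, Col1a2, Dcn) summed to 867 and 901 in myofibroblasts and 643 and 527 in fibroblasts. At a limma adjusted p under 0.05, 2 of the 6 were higher and 3 lower in myofibroblasts than in fibroblasts. All 6 myofibroblast and all 6 fibroblast markers were above background on each array. The homogenates read 7.45 and 7.16 for Pdgfra. Markers of other cells were present to different degrees in the sorted samples. The 5 airway markers summed to 12.1 and 17.7 in myofibroblasts, 124 and 73.6 in fibroblasts and 692 and 676 in homogenate, mostly from Scgb1a1, a club cell secretory protein, while Foxj1 of ciliated cells was not above background on any sorted array. The 6 endothelial markers summed to 0.245 and 0.276 in myofibroblasts, 1.71 and 1.40 in fibroblasts and at least 67.5 in homogenate. The 9 macrophage and leukocyte markers summed to 185 and 176 in myofibroblasts, 193 and 176 in fibroblasts and 279 and 290 in homogenate, mostly from Itgam, which read 151 to 173 on the sorted arrays and 136 and 143 in homogenate. The pan-leukocyte gene Ptprc was above background on 1 of the 4 sorted arrays, at 0.0674, against 23.4 and 23.7 in homogenate.

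Of the 40 members, 33 were above background on at least 1 array and 22, or 55.0%, on all 6, against 61.1% of all named genes. The 7 that were above background on no array were Nr1i2, the pregnane X receptor; Hnf4a and Hnf4g, liver and gut factors; Nr2e1 and Nr2e3, known from brain and retina; Esrrb; and Nr5a2. Such a gene is below what its probe could measure here, which does not show that it was not expressed. Members above background numbered 28 and 23 in the myofibroblast samples, 29 and 27 in the fibroblast samples and 30 and 31 in the homogenates. Pgr, the progesterone receptor, and Nr6a1, the germ cell nuclear factor, passed background on both homogenate arrays and on no sorted array. Rxrg passed on the fibroblast arrays and on no other.

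**Figure D1:**
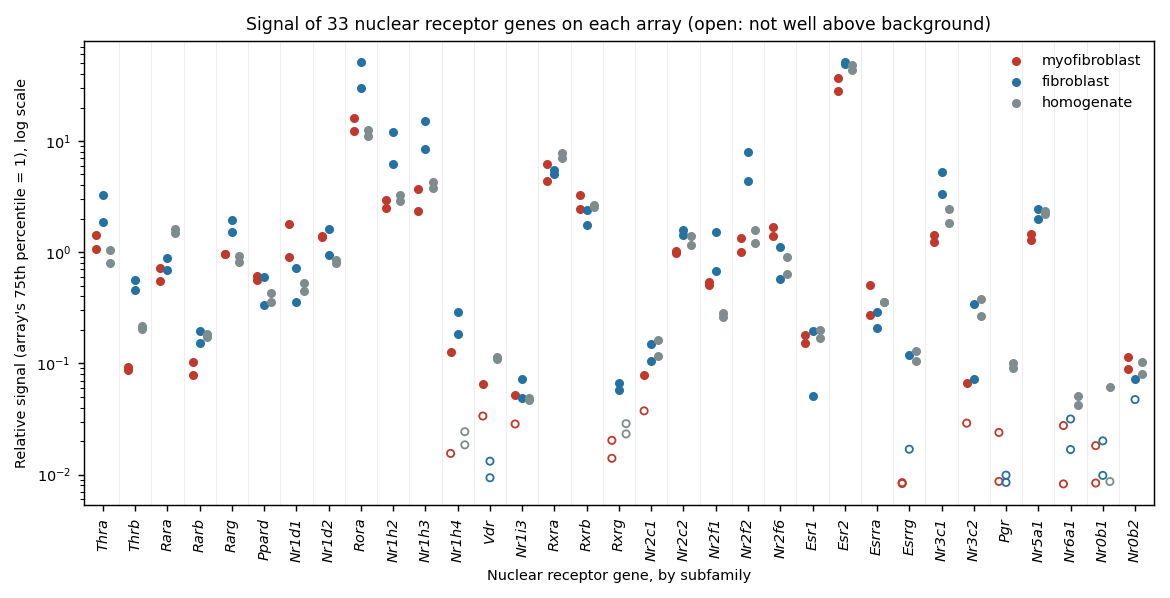
Relative signal (log scale, array 75th percentile = 1) of each nuclear receptor with a probe above background on at least 1 array, one point per array, coloured by group, with filled points well above background and open points not. Nr2f2, Nr1h2, Nr1h3 and Rora sit highest on both fibroblast arrays, while Pgr and Nr6a1 are filled in homogenate only. Levels of different probes cannot be set against each other.

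In myofibroblasts from bleomycin-treated lungs, 7 nuclear receptors were lower than in steady-state fibroblasts and none was higher. Those that fell were the thyroid hormone receptor Thrb, the orphan receptor Nr2f2 (COUP-TFII), both liver X receptors (Nr1h2 and Nr1h3), the glucocorticoid receptor Nr3c1, the retinoid-related orphan receptor Rora and the retinoid X receptor Rxrg. Their falls ran from 2.78-fold for Rora to 5.65-fold for Thrb, with Rxrg given as a bound. Of the 28 members tested 25.0% were called, all lower, against 17.2% of the 16006 genes tested. By direction the background was 9.22% higher and 8.02% lower. Without adjustment 1 member was higher and 12 lower at a limma p under 0.05, against 2956 higher and 2866 lower of the 16006 genes. The median log2 difference was -0.75 over the 28 tested members and -0.06 over all genes tested. A member was tested if its probe was well above background throughout 1 or both groups, as the scanner software flags it. Called means a limma adjusted p under 0.05, with Benjamini-Hochberg adjustment over all genes tested. The fit pools the spread of all groups, so the homogenate arrays, which lay closest to each other, enter the error of this comparison. A fit of the 4 sorted arrays alone called 2 members, both lower, and 1061 genes. Rxrg entered only through the fibroblast arrays, where it was above background. Of the 22 members above background on all 4 arrays, 6 were called, all lower. With that filter 2147 of 14171 genes were called, 1015 of them lower. In bulk RNA, fewer cells of a type and less RNA per cell cannot be told apart.

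How the arrays are scaled moves the balance over all genes. Higher genes made up 53.5% of calls between the sorted groups, 64.6% after scaling to the array median and 25.4% in the authors' deposited table, and these settings moved the log2 median over all genes by 0.14 and -0.41. The members called stayed 0 higher under each, with 5 lower when scaled to the median and 13 lower on the authors' deposited table. With the authors' values the members' median was -1.16 against -0.47 for all genes.

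The start regions of 5 of the called receptors are shown because these genes fell together. Each is the 250 bases upstream of an annotated start from RefSeq, build GRCm38.p6, 5′ to 3′ on the gene's strand. Thrb is chr14:17660710-17660959 on the plus strand, Nr2f2 chr7:70366747-70366996 on the minus strand, Nr1h3 chr2:91195117-91195366 on the minus strand, Nr1h2 chr7:44553966-44554215 on the minus strand and Rora chr9:68653536-68653785 on the plus strand. Capitals mark AGGTCA, the half-site bound by many receptors of this family, and GGGCGG, the GC box, on either strand.
Thrb: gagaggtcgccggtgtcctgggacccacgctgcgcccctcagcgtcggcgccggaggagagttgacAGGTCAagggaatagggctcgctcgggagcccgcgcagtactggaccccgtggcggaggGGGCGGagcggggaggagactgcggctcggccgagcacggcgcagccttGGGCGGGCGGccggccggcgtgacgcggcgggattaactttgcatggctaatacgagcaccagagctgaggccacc
Nr2f2: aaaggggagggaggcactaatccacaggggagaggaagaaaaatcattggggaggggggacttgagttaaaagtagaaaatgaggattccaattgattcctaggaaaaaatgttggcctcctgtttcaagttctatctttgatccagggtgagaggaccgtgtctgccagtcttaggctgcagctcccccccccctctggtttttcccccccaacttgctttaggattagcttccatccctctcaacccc
Nr1h3: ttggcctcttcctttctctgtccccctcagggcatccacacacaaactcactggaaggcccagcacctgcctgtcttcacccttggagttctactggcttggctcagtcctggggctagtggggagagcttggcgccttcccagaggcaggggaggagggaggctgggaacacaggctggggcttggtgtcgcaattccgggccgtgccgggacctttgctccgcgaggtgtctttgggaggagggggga
Nr1h2: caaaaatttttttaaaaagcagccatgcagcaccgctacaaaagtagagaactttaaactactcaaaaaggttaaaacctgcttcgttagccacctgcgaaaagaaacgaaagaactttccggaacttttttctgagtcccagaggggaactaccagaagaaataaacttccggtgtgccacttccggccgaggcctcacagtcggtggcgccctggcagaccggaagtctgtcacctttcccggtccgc
Rora: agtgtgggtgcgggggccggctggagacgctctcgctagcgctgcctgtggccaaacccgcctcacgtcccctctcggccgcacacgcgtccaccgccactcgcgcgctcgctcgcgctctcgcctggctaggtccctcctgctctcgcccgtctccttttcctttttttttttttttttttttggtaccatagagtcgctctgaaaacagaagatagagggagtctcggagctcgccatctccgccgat
Capitals occur in the Thrb window alone. Its AGGTCA lay 184 bases upstream of the start, and its GGGCGG matches lay 125, 76 and 72 bases upstream, the last 2 overlapping. Thrb and Nr1h3 each have 2 windows in the table, and the one nearest the annotated 5′ end is printed. The table does not tie a window to the transcript a probe reads.

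The windows share little in base composition. Thrb had 71.6% G and C with 30 CpG dinucleotides and Rora 61.2% with 26, while Nr2f2 had 50% with 1. The median promoter of the 27024 genes with a window had 52% and 6. A window was found for 37 of the 41 listed symbols, counted with Rorb, and for 6 of the 7 that fell. These 37 are the members counted below. AGGTCA was found in 13.8% of all windows, in 6 of the 37 members and in 1 of the 6. GGGCGG was found in 33%, in 17 of 37 and in 1 of 6. The steroid half-site AGAACA occurred in 16.1% of windows and in 1 of 37 members. CACGTG, the E-box read by clock proteins, occurred in 6.04% and in 3 members, and TATAAA in 13.0% and in 5. None of the last 3 motifs was in a window of a gene that fell. Both strands were searched, and a match is a description of these letters, not a binding site.

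Among receptors for thyroid hormone, Thrb encodes the beta receptor, which is known for its part in hormone feedback and in sensory organs. Thrb read 0.0934 and 0.0873 in myofibroblasts, 0.459 and 0.567 in fibroblasts and 0.219 and 0.205 in homogenate. The groups do not overlap, and fibroblasts were highest and myofibroblasts lowest. Between the sorted groups Thrb fell by 2.50 ± 0.25 (SE) on the log2 scale, a 5.65-fold difference with a limma adjusted p of 0.0045. Thra, the alpha receptor, read 1.07 and 1.43 in myofibroblasts, 3.28 and 1.87 in fibroblasts and 1.05 and 0.805 in homogenate. The sorted groups did not overlap for Thra, but their 2-fold difference did not pass, at a limma adjusted p of 0.12.

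The liver X receptors sense oxysterols and drive cholesterol efflux. Nr1h3, LXR alpha, read 2.37 and 3.69 in myofibroblasts, 15.2 and 8.45 in fibroblasts and 4.25 and 3.75 in homogenate. It fell by 1.94 ± 0.40 on the log2 scale, 3.84-fold, at a limma adjusted p of 0.0295. The ubiquitous Nr1h2, LXR beta, read 2.51 and 2.92 in myofibroblasts, 12 and 6.26 in fibroblasts and 3.24 and 2.86 in homogenate. It fell 3.21-fold (limma adjusted p 0.0364). On the brightest probe of both genes the fibroblast arrays stood above the other 4, and myofibroblasts and homogenate lay close together. The bile acid receptor Nr1h4 was above background on both fibroblast arrays, at 0.184 and 0.290, and on 1 myofibroblast array, at 0.126. Its difference had a limma adjusted p of 0.139.

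Nr3c1 encodes the glucocorticoid receptor, the target of cortisol-like steroids. Its relative signal was 1.44 and 1.23 in myofibroblasts, 5.22 and 3.34 in fibroblasts and 2.46 and 1.82 in homogenate, so the 3 groups were separate and the homogenate lay between. The fall between the sorted groups was 1.65 ± 0.33 on the log2 scale, 3.15-fold, with a limma adjusted p of 0.0284. The mineralocorticoid receptor Nr3c2 read 0.0666 and 0.0290 in myofibroblasts, the second not above background, and 0.0719 and 0.342 in fibroblasts. The fibroblast arrays were 4.76-fold apart there, and the limma adjusted p was 0.167.

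Nr2f2, COUP-TFII, is an orphan factor of veins and of mesenchyme in development. It read 1.33 and 1.01 in myofibroblasts, 7.94 and 4.37 in fibroblasts and 1.58 and 1.21 in homogenate. Both fibroblast arrays were well above the other 4, which overlapped. It fell by 2.35 ± 0.38 on the log2 scale, 5.09-fold, at a limma adjusted p of 0.0166. Its close relative Nr2f1, COUP-TFI, read 0.536 and 0.512 in myofibroblasts, and 1.53 and 0.682 in fibroblasts. The log2 difference for Nr2f1 was -0.96 ± 0.42 with a limma adjusted p of 0.161. Nr2f6, the third of these, read 1.40 and 1.68 in myofibroblasts and 1.12 and 0.578 in fibroblasts. Its difference, 0.93 ± 0.41, had a limma adjusted p of 0.162.

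Rora binds single half-sites and competes with the REV-ERB repressors on clock genes. It read 16 and 12.4 in myofibroblasts, 51.5 and 29.7 in fibroblasts and 12.5 and 11 in homogenate. Rora fell 2.78-fold (limma adjusted p 0.0433) between the sorted groups. The REV-ERB gene Nr1d1 did not pass the test. It read 1.81 and 0.902 in myofibroblasts, 0.357 and 0.723 in fibroblasts and 0.447 and 0.525 in homogenate. The log2 difference was 1.33 ± 0.49 and the limma adjusted p 0.116, and Nr1d1 was the 1 member higher at an unadjusted p under 0.05. The second REV-ERB gene, Nr1d2, overlapped between the groups, at 1.41 and 1.37 against 1.62 and 0.947.

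The retinoid X receptor Rxrg was not above background in myofibroblasts, at 0.0140 and 0.0203, and just above it in fibroblasts, at 0.0580 and 0.0661. It was at least 1.53-fold lower in myofibroblasts, with a limma adjusted p of 0.0159. Such a bound sets the bright group's mean against the higher of the dim probe's own signal and the lowest signal well above background on each array. On their brightest probes Rxra and Rxrb, the partners that most cells carry, were far above background on all 6 arrays. There Rxra read 4.38 and 6.15 in myofibroblasts and 5.51 and 5 in fibroblasts, and Rxrb read 2.44 and 3.30 against 2.41 and 1.76. Their limma adjusted p-values were 0.973 and 0.308. Further probes were dim, at 0.0381 to 0.219 for Rxra and 0.0109 to 0.601 for Rxrb, so the levels of both genes are uncertain. Of the retinoic acid receptors, Rarg read 0.966 and 0.965 in myofibroblasts and 1.93 and 1.52 in fibroblasts, without overlap, at a limma adjusted p of 0.0795. Rarb read 0.0790 and 0.102 against 0.153 and 0.197 (limma adjusted p 0.0696), and Rara 0.550 and 0.726 against 0.687 and 0.880 (0.477).

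Groups did not overlap for 21 of the 28 members tested, 75%, against a background of 63.1% of genes. The other members tested between the sorted groups were Ppard, Nr1i3, Nr2c1, Nr2c2, Esr1, Esr2, Esrra, Nr5a1 and Nr0b2, and their limma adjusted p-values ran from 0.117 to 0.466. Ppard, a fatty acid receptor, read 0.566 and 0.608 in myofibroblasts and 0.601 and 0.336 in fibroblasts. Esrra, which drives mitochondrial genes, read 0.275 and 0.509 against 0.291 and 0.210.

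**Figure D2:**
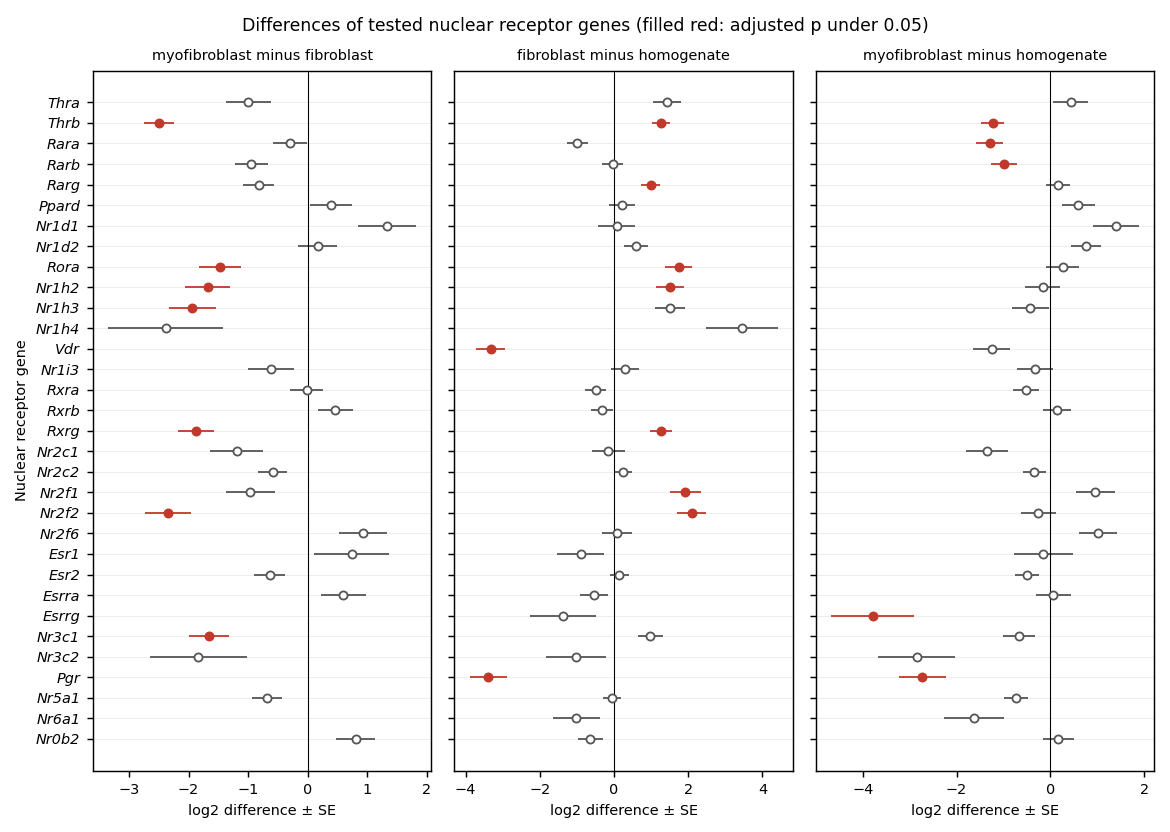
Log2 difference in relative signal (x axis) with its limma standard error for each tested nuclear receptor in the 3 comparisons, with called members filled red; values of Rxrg, Vdr, Pgr and Esrrg, dim in 1 group, are fitted and not bounds. Between the sorted groups the 7 called members all lie below 0, from -1.47 for Rora to -2.50 for Thrb. In fibroblasts against homogenate 7 lie above 0 and 2 below.

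Airway markers ran in the same direction as these falls. All 3 airway markers tested between the sorted groups were lower in myofibroblasts, and Scgb1a1 read 10.4 and 15.9 there and 118 and 69 in fibroblasts. Of the endothelial markers 1 of 4 tested was lower, and of the alveolar markers 1 of 6. Of the macrophage and leukocyte markers 1 of 6 tested was higher and 0 lower, with 2 higher and 0 lower at an unadjusted p under 0.05 by limma. Tek, an endothelial receptor, read at most 0.112 in myofibroblasts and 1.37 and 1.07 in fibroblasts. The part of these cells in the receptor differences was not tested. Among pericyte and smooth muscle markers 3 were higher and 1 lower of 4 tested, and Cspg4 read 1.26 and 1.57 in myofibroblasts and 0.147 on both fibroblast arrays.

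Leaving out single arrays changed how many receptors passed. Leaving out a homogenate array here repeats the fit of the 4 sorted arrays, because the homogenate array that remains adds no spread. Without the second fibroblast array 12 members were called, 1 higher and 11 lower, and without the first 5. Without any 1 of the myofibroblast or homogenate arrays 2 were called. Thrb passed under every setting except the mean of all its probes (limma adjusted p 0.0669). Nr2f2 passed in all but the settings without 1 of the myofibroblast arrays, where its limma adjusted p reached 0.091. Nr3c1 and Nr1h3 were no longer called in a fit of the 4 sorted arrays, with array weights, or without any 1 array other than the second fibroblast one, up to 0.132 and 0.118. Rora and Nr1h2 were also lost after median scaling and with no filter on dim probes, up to 0.184 and 0.136, though Nr1h2 was kept without the first fibroblast array. Rxrg was lost with normexp background correction (0.352), in the fit of 4 arrays, with array weights, and without the first myofibroblast or either homogenate array.

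**Figure D3:**
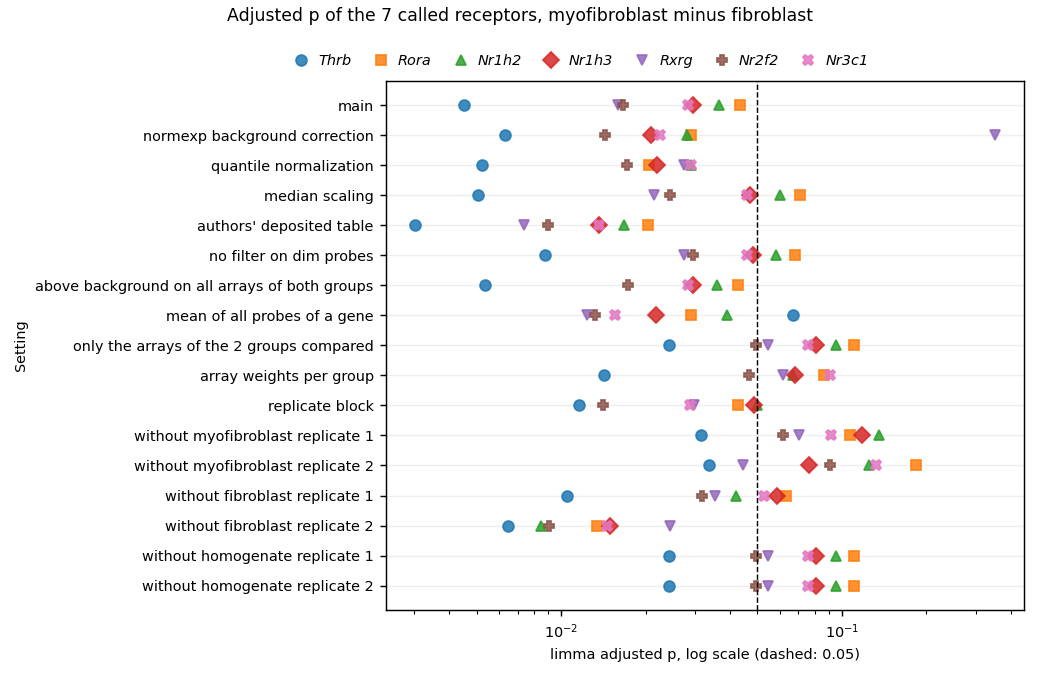
Limma adjusted p (x axis, log scale) of the 7 nuclear receptors called between myofibroblasts and fibroblasts, one row per setting and one symbol per gene, with the 0.05 threshold dashed. Thrb stays below the line except at 0.0669, while Rora reaches 0.184.

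More than 1 tested probe was present for 14 members, with 19 further probes, and 15 of these had the sign of the brightest. For the genes that fell, all 6 further probes had a negative difference and 2 of them were called. The further probe of Nr1h3 fell by 1.43 ± 0.32 on the log2 scale (limma adjusted p 0.0406) and that of Nr3c1 by 1.16 ± 0.25 (0.0376). A further Nr1h2 probe gave -0.93 ± 0.32 (limma adjusted p 0.0997). Of the further Rora probes the brighter read 2.63 and 2.45 against 6.24 and 4.12 (0.0809). The dimmer gave -1.68 ± 0.73 (0.165), and the dim Thrb probe -1.44 ± 1.16 (0.408). P-values in this paragraph are adjusted over all named probes. The probes thus gave 1 direction for these genes but not the same size.

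The probes parted for the estrogen receptors, and the further Thra probes did not show the difference of the brightest. Esr1, estrogen receptor alpha, read 0.181 and 0.151 in myofibroblasts and 0.0507 and 0.194 in fibroblasts on its brightest probe, a difference of 0.74. A second Esr1 probe read 0.0597 and 0.0430 against 0.129 and 0.168 and fell by 1.54 ± 0.30 on the log2 scale (limma adjusted p 0.0288 over all probes). No direction is given for Esr1. For Esr2, estrogen receptor beta, 1 probe read 28.2 to 50.8 across the 6 arrays while the other was not above background on any of them. Its level is therefore uncertain. Further Thra probes gave log2 differences of 0.00 ± 0.49 and 0.93 ± 1.15, both within their error of 0, and none was called.

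**Figure D4:**
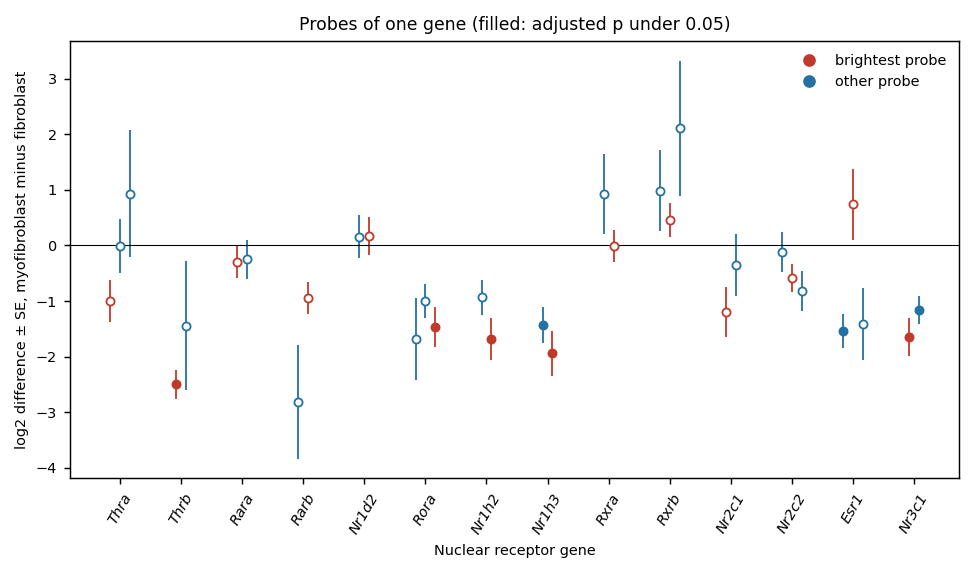
Log2 difference between myofibroblasts and fibroblasts, with its limma standard error, for every tested probe of nuclear receptors that have more than 1, the brightest probe in red, the others in blue, and called probes filled. The further probes of Nr1h3 and Nr3c1 lie at -1.43 and -1.16, below 0 like their brightest, while the Esr1 probes lie on both sides of 0.

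Against whole-lung homogenate, steady-state fibroblasts were higher for Nr2f2, Nr2f1, Rora, Nr1h2, Thrb, Rxrg and Rarg and lower for the vitamin D receptor Vdr and for Pgr. These were 9 of 32 members tested, against 19.9% of the 17063 genes tested, with 8.09% of genes higher and 11.8% lower. Vdr, Pgr and Rxrg entered the test only through the group where they were above background, so their calls are given as a description. Of the 25 members above background on all 4 arrays, 5 were called, all higher. With that filter 2027 of 14647 genes were called, 1139 of them higher. The comparison uses the same fibroblast arrays as the one above, so a gene high on those arrays enters both. The median over members was 0.11 on the log2 scale and over all genes 0.03. Groups did not overlap for 22 of the 32 members, against 62.8% of genes. Higher genes made up 40.7% of all calls, 50.7% with median scaling and 36.8% using the authors' deposited table.

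Nr2f2 rose by 2.09 ± 0.38 on the log2 scale over homogenate, 4.26-fold (limma adjusted p 0.0156). Nr2f1 read 0.283 and 0.259 in homogenate and was 3.77-fold higher in fibroblasts (0.0285), although its fibroblast arrays were 2.24-fold apart. The third COUP-TF gene, Nr2f6, overlapped between these groups. Rora rose 3.34-fold (0.0221), Nr1h2 2.85-fold (0.0420) and Thrb 2.41-fold (0.0200), each a limma adjusted p. Nr1h3 and Thra did not pass, at 0.0510 and 0.0503. The further Nr1h2 probe did not show the rise, at 2.86 and 1.93 in fibroblasts and 2.3 and 2.49 in homogenate. Its log2 difference was -0.03 ± 0.32 (limma adjusted p 0.964 over all named probes). The gamma retinoic acid receptor Rarg read 1.93 and 1.52 in fibroblasts and 0.811 and 0.923 in homogenate, 1.98-fold higher at a limma adjusted p of 0.0491, a call lost in 11 of 16 alternatives. Rxrg was at least 1.59-fold higher (0.0373).

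Vdr is expressed in many epithelia and immune cells. It read 0.113 and 0.110 in homogenate and was not above background in fibroblasts, at 0.00936 and 0.0132, and thus at least 2.61-fold lower there with a limma adjusted p of 0.00372. On the myofibroblast arrays it read 0.0655, above background, and 0.0336, not above it. Pgr read 0.1 and 0.0914 in homogenate and was at least 2.23-fold lower in fibroblasts (limma adjusted p 0.00775). The further Pgr probe read 0.119 and 0.0903 in homogenate and was not above background in sorted cells. With normexp background correction, which adds an offset, the adjusted p was 0.164 for Vdr and 0.292 for Pgr. All 8 alveolar markers tested and 4 of 5 airway markers were also lower in fibroblasts than in homogenate, as were 5 of 6 endothelial and 7 of 9 leukocyte markers. The part of these cells in the Vdr and Pgr differences was not tested.

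Without the first or the second homogenate array 1 member was called, and Vdr was kept under both. Without the second fibroblast array 14 were. Of the named calls, Nr2f2 and Rora were lost without 1 of the homogenate arrays, up to limma adjusted p-values of 0.118 and 0.151. Thrb was lost there too and with the mean of its probes (0.248), Nr2f1 without any myofibroblast or homogenate array (up to 0.164), Nr1h2 under 8 settings (up to 0.226) and Rxrg under 8 (up to 0.252).

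Bleomycin myofibroblasts were lower than homogenate of untreated lung for Rara, Thrb, Rarb, Esrrg and Pgr, and no member was higher. These were 5 of 30 members tested, or 16.7%, against a background of 26.9% of the 17163 genes tested. The share of members called was thus below that of all genes. By direction, 11.9% of genes were higher and 15.0% lower. At an unadjusted limma p under 0.05, 1 member was higher and 10 lower, against 3375 higher and 3759 lower of the 17163 genes. In a fit of the 4 arrays compared 3 members were called higher and 7 lower, against 3699 higher and 3588 lower of the 17163 genes. With array weights 4 members were higher and 10 lower, against 3787 and 4007 of all genes. The 3 higher members were Nr1d2, Nr2f1 and Nr2f6, and array weights added Nr1d1. Groups did not overlap for 22 of the 30, or 73.3%, against 77.5% of genes. Esrrg and Pgr entered only through homogenate, and of the 23 members above background on all 4 arrays 2 were called, both lower. With that filter 3117 of 14610 genes were called, 1361 of them lower. The comparison uses the myofibroblast and homogenate arrays of both comparisons above. Higher genes made up 44.3% of all calls, 64.9% once arrays were centred on their medians and 20.6% with the authors' deposited table, and those settings moved the log2 median over all genes by 0.40 and -0.50.

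Rara, the alpha retinoic acid receptor, read 0.550 and 0.726 in myofibroblasts and 1.48 and 1.63 in homogenate. It was 2.46-fold lower, at -1.30 ± 0.28 on the log2 scale and a limma adjusted p of 0.0241, with fibroblasts between at 0.687 and 0.880. Rarb, itself a target of retinoic acid in many cells, read 0.0790 and 0.102 against 0.172 and 0.185, 1.99-fold lower (0.0496). Thrb was 2.35-fold lower (0.0190), so it was lower in myofibroblasts than in either other group. Esrrg, an orphan receptor of oxidative tissues, read 0.130 and 0.104 in homogenate and was not above background in myofibroblasts, at least 2.88-fold lower (limma adjusted p 0.0289). On the fibroblast arrays Esrrg read 0.119, above background, and 0.0169, not above it. Pgr was at least 2.37-fold lower (0.0139).

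Nr3c2 read 0.380 and 0.266 in homogenate and did not pass against myofibroblasts, at a limma adjusted p of 0.0519. Nr1h2, Nr1h3, Nr2f2 and Rora, each lower in myofibroblasts than in fibroblasts, had log2 differences of -0.17 to -0.43 and 0.26 against homogenate, with limma adjusted p-values of 0.450 to 0.762. The further Nr1h2 probe gave -0.96 ± 0.32 against homogenate (limma adjusted p 0.0795 over all named probes). Nr1d1 had a difference of 1.40 ± 0.49 (0.0881), called after median scaling at 0.0326. The calls here moved with scaling and with single arrays. Rara was lost after median scaling, Thrb after median scaling, quantile normalization, normexp and with the mean of all its probes (limma adjusted p 0.313), and Rarb under 11 of 16 alternatives. Esrrg was lost with normexp (0.214) and with the mean of its probes (0.0662), and Pgr with normexp (0.416). None of the 5 was called without the first or the second homogenate array, where 4 and 6 members were lower and 0 higher at an unadjusted p under 0.05.

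Genes that work with the receptors were taken from 10 lists. Their counts of calls are given against the 9.22% higher and 8.02% lower of all genes between the sorted groups, with the median of -0.06. Counts without adjustment stand against 2956 higher and 2866 lower of the 16006 genes at an unadjusted limma p under 0.05. The lists were chosen with results of these data known, and a gene on a list named for a receptor can answer to other factors too.

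Coactivators and mediators had 1 higher and 2 lower in myofibroblasts of 14 tested, with a median log2 difference of -1.03, and 1 higher and 7 lower without adjustment. Ppargc1a, the PGC-1 alpha coactivator of mitochondrial genes, read 0.344 and 0.176 in fibroblasts and was not above background in myofibroblasts, at least 6.10-fold lower (limma adjusted p 0.0224). Ncoa7 read 0.767 and 0.851 in myofibroblasts and 3.62 and 1.97 in fibroblasts, 3.30-fold lower (0.0296). Carm1, an arginine methyltransferase, went the other way, at 4.75 and 6.30 against 1.81 and 2.23, 2.72-fold higher (0.0263). Of 12 corepressors none was called by limma, with 2 higher and 1 lower at an unadjusted p under 0.05 and a median of 0.17.

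Retinoid handling moved both ways, with 2 genes higher and 5 lower of 14 tested and a median of 0.25. Without adjustment 4 were higher and 5 lower. Lrat, which esterifies retinol for storage, read 0.114 and 0.163 in myofibroblasts and 26.1 and 14.5 in fibroblasts, 143-fold lower (limma adjusted p 0.00128). Rbp4, the retinol carrier protein, read 0.432 and 0.523 against 10.9 and 9.40, 21.3-fold lower (0.00132), and was 0.579 and 0.544 in homogenate. Stra6, the receptor that takes up retinol from that carrier, read 0.342 and 0.367 in myofibroblasts and was not above background in fibroblasts, at least 8.27-fold higher (0.00178). The 3 calls held under every alternative run, 16 for Lrat and Rbp4 and 15 for Stra6.

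Glucocorticoid activation and targets had 0 higher and 4 lower of 13 tested, with 3 higher and 7 lower without adjustment and a median of -1.03. Hsd11b1, which makes active glucocorticoid inside cells, read 3.18 and 3.57 in myofibroblasts and 26.2 and 19 in fibroblasts, 6.64-fold lower (limma adjusted p 0.00457). Cebpd read 4.31 and 6.4 against 49.6 and 23.3, 6.48-fold lower (0.0164). Tsc22d3, the leucine zipper GILZ, read 18.6 and 17.7 against 98.7 and 53.9, 4.01-fold lower (0.0197).

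LXR targets had 1 higher and 3 lower of 10, the same as without adjustment, with a median of -0.77. Smpdl3a, a phosphodiesterase, read 0.464 and 0.486 in myofibroblasts and 4.30 and 2.06 in fibroblasts, 6.27-fold lower (limma adjusted p 0.0131). Apoe read 28.5 and 40.3 against 102 and 146, 3.59-fold lower (0.0191). Abcg1, a sterol exporter, was not above background in fibroblasts and read 0.306 and 0.579 in myofibroblasts, at least 9.83-fold higher (0.00585), with 20 and 19.6 in homogenate. The macrophage gene Marco read 0.458 and 1.84 in myofibroblasts, 0.111 and 0.107 in fibroblasts and 67.9 and 71.4 in homogenate. It was 8.41-fold higher in myofibroblasts than in fibroblasts (limma adjusted p 0.0315). Marco was the 1 marker called of 6 macrophage and leukocyte markers tested, and their median log2 difference was -0.07. The part of macrophages in the Abcg1 difference was not tested. The LXR target list therefore held calls in both directions beside the fall of both LXR genes.

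PPAR and ERR targets had 4 higher and 2 lower of 12, with 5 higher and 2 lower without adjustment and a median of 0.70. Acadm, of fatty acid oxidation, read 1.44 and 1.48 in myofibroblasts and 4.95 and 3.01 in fibroblasts, 2.65-fold lower (limma adjusted p 0.0438). Cycs, cytochrome c, read 7.35 and 7.29 against 2.65 and 2.94, 2.62-fold higher (0.0181). Clock partners and targets of REV-ERB and ROR had 2 higher and 2 lower of 13, with a median of -0.26. Without adjustment 2 of them were higher and 5 lower. Bhlhe40 read 2.67 and 2.49 against 0.519 and 0.696, 4.29-fold higher (0.00796). Ciart was at least 6.61-fold higher (0.0238), and Cry2 read 1.12 and 0.940 against 4.27 and 2.66, 3.28-fold lower (0.0235).

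Of 9 tested genes of thyroid hormone handling 0 were higher and 1 lower, with 0 and 4 without adjustment. The called gene was Crym, a cytosolic thyroid hormone binding protein, at 0.162 and 0.257 in myofibroblasts and 1.18 and 0.940 in fibroblasts, 5.18-fold lower (limma adjusted p 0.0101). Of 4 vitamin D genes none was called by limma, with 0 higher and 1 lower without adjustment. Steroid and xenobiotic enzymes had 0 higher and 2 lower of 6, the same as without adjustment. Sult1e1, which sulfates estrogen, was at least 39.1-fold lower (0.00128) and Hsd17b11 3.40-fold lower (0.0222).

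**Figure D5:**
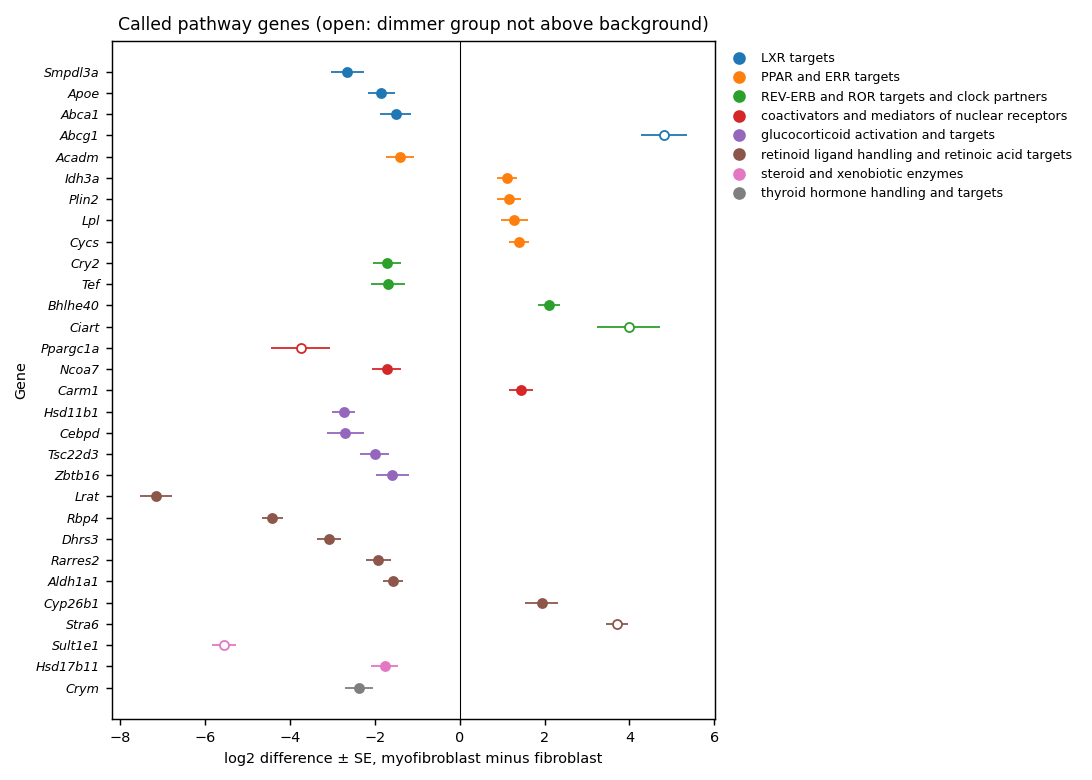
Log2 difference between myofibroblasts and fibroblasts, with its limma standard error, for the called genes reported here from the lists of coregulators, ligand handling and targets, coloured by list, and open where the dimmer group was not above background, so that the value is no bound. Lrat lies farthest below 0 at -7.16, while Bhlhe40 lies above 0 at 2.10 and Carm1 at 1.45.

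Of the list genes named here, Abcg1, Ciart, Ppargc1a, Stra6 and Sult1e1 entered the test only through the group where they were above background. Their calls are given as a description, and the filter that needs every array above background could not be run for them. Calls that held under every alternative run were those of Abcg1, Bhlhe40, Crym, Hsd11b1, Lrat, Rbp4, Stra6 and Sult1e1. The others were lost without 1 of the myofibroblast or homogenate arrays, and all but Smpdl3a also in a fit of the 4 sorted arrays. Acadm, Carm1, Ciart and Ppargc1a were lost without 1 of the fibroblast arrays too. Further settings also lost calls, such as normexp for Ciart and the mean of all probes for Cycs. The Acadm call was lost in 10 of 16 alternatives. Against homogenate, fibroblasts had 6 retinoid genes higher and 1 lower of 13 tested and 4 glucocorticoid genes higher and 0 lower of 14, the latter the same without adjustment. Myofibroblasts had 0 glucocorticoid genes higher and 3 lower of 14 against homogenate, with 3 and 3 without adjustment. Over all genes, 8.09% were higher and 11.8% lower in fibroblasts, and 11.9% and 15.0% in myofibroblasts, each against homogenate. Without adjustment 2613 of 17063 genes were higher and 2920 lower in fibroblasts. In myofibroblasts 3375 of 17163 were higher and 3759 lower without adjustment.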

How the data were processed

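The deposited scanner files hold spot intensity written by Agilent Feature Extraction 12.0.3.1 for the authors, per the file headers: background subtracted and detrended within each array, with no scaling between arrays. A deposited table of intensity equals that processed signal times 1 constant per array. From these files log2 processed signal minus the log2 75th percentile of its array was computed. Outlier spots were dropped, spots of a probe averaged, and 32994 of 56605 probes named by accession through RefSeq (GRCm38.p6). The files' build is another one, so only the start regions carry coordinates, those of the RefSeq table on GRCm38.p6. All 6 arrays entered 1 limma 3.58.1 fit in R 4.3.3 (3 residual degrees of freedom, 5.57 with the prior), two-sided. The number of arrays limits the precision. All arrays came from 1 slide and scan. Sorted samples lay in 1 row and homogenates in the other, so row and homogenate cannot be told apart.

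Members, lists and tests were chosen with earlier results of these data known. Members were named by rule, and of each list the 3 largest called differences between the sorted groups; 1 gene selected so is not reported here. Alternatives were normexp (offset 50, on the median spot signal), quantile and median scaling, the authors' table, 2 detection filters, the mean of all probes, fewer arrays, array weights, a replicate block and leaving out each array. The fit was tested on simulated data.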

Additional observations from a re-analysis of the deposited data

How the results depend on the processing

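The 21 called nuclear receptor differences kept their direction under each alternative run, 16 in all or 15 for Rxrg, Vdr, Pgr and Esrrg, and 0 reversed. Each of the 21 lost significance under at least 1. Of the differences not called, 10 of 21 between the sorted groups, 8 of 23 between fibroblasts and homogenate and 13 of 25 between myofibroblasts and homogenate were called under an alternative. Members called between the sorted groups, 7 in the main analysis, numbered 13 in the authors' table, 2 with only the arrays of both groups and 2 with array weights, and 2 to 12 leaving out 1 array. All genes called there, 2758, numbered 1061 with only those arrays, 1142 with weights and 884 to 5605 leaving out 1 array. For fibroblasts against homogenate, members numbered 5 and all genes 2027 when every array had to be above background, and 1 to 14 and 1420 to 6148 leaving out 1 array. For myofibroblasts against homogenate, members numbered 2 with normexp, 3 after median scaling, 14 in the authors' table, 2 when every array had to be above background, 10 with only the arrays compared, 14 with weights and 0 to 10 leaving out 1 array, where 0 came without a homogenate array (4 and 6 lower, 0 higher at an unadjusted p under 0.05 by limma). All genes there numbered 7287 with only the arrays compared, 7794 with weights and 1724 to 7287 leaving out 1 array. With 1 array left in a group, it is assumed to vary like the other groups. Leaving out an array of the group not compared gives the same result as using only the arrays compared. Those alternatives are therefore not separate. With the replicate number as a block, 6, 6 and 5 members and 2227, 3219 and 4044 genes were called in the 3 comparisons, where Nr1h2 lost its call between the sorted groups, Nr1h2, Rarg and Rxrg between fibroblasts and homogenate, and Rarb between myofibroblasts and homogenate. Deviations of same-numbered arrays correlated at 0.07, -0.01 and 0.04 over 13999 genes. With so few arrays per group these values cannot show whether same-numbered samples were paired. The causes of these shifts were not tested. Signal over background limits the members near it, Rxrg, Vdr, Pgr and Esrrg, which have only bounds.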
